A study of Arabidopsis thaliana with 8 samples.

Results

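The transcript levels described here are those of wild type cells that carried a fluorescent marker of the root quiescent center, taken alone and without a contrast. They come from 4 of the 8 libraries of a study of Arabidopsis thaliana roots; the other 4 libraries came from plants with a mutated PAN gene and are not used here. The plants were Col-0 seedlings grown on standard medium for 5 days. Their roots were protoplasted, which strips the cell walls with enzymes, and cells with WOX5::GFP fluorescence were sorted. In such a reporter the promoter of WOX5 drives green fluorescent protein, so the sort takes cells by the activity of that promoter and not by position in the root. RNA was extracted with a micro kit and its cDNA was amplified with a kit for low input, and the number of cells in a library is not given in the labels.

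The authors deposited 1 pooled value per gene and genotype, in FPKM, a unit that scales fragments to transcript length and to library size. No replicate spread can therefore be given for any level below, and the depth of the libraries is not known. The table has 33201 rows, of which 32654 name a single nuclear gene. These 32654 genes were ranked by their wild type FPKM and the highest 200 are described. The genes were thus chosen by the measured level, and no test was made of it. In bulk RNA of this kind, fewer cells of a type and less RNA per cell cannot be told apart.

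The quiescent center is a small group of rarely dividing cells at the tip of the root, surrounded by the stem cells of the root tissues. WOX5, a homeobox transcription factor, is expressed there and keeps the neighboring columella stem cells from differentiating. The PLETHORA (PLT) factors, the SHORT-ROOT and SCARECROW factors, auxin and small secreted RGF peptides also act in maintaining this niche.

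WOX5 (AT3G11260) itself stood at 205 FPKM, rank 665 among nuclear genes. It was the most abundant of 95 homeobox genes and ranked 18 among 1633 genes with a transcription factor domain. Since the sort used its promoter, this level checks the label and is not a finding. The 250 bases before its RefSeq start (TAIR10.1, chr3:3527030-3527279, plus strand) are shown because they lie at the gene that defined the sort. They hold no match on either strand to the TATA box, telo-box or site II element described further below.
WOX5: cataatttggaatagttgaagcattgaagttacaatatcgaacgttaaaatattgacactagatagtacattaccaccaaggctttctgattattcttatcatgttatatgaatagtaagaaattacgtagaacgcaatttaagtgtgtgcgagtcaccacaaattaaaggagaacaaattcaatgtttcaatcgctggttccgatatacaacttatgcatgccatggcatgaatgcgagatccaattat

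Much of the signal came from a small number of genes. Of the 32654 nuclear genes, 17549 (53.7%) reached 1 FPKM, 10303 (31.6%) reached 10 FPKM and 1486 (4.55%) reached 100 FPKM. Of these last, 55 stood at 1000 FPKM or more, and 8849 genes (27.1%) were listed at 0. The median was 1.60 FPKM over all nuclear genes and 6.88 FPKM over those above 0. The 10 highest genes carried 3.67% of the summed FPKM, the 200 highest 24.7% and the 1000 highest 51.2%. Among 26168 protein-coding genes, 16902 reached 1 FPKM and 1474 reached 100 FPKM. Of 4800 pseudogenes 307 reached 1 FPKM and none reached 100 FPKM. All 612 tRNA genes were listed at 0.

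The cutoff at rank 200 fell in a smooth stretch of the ranking. The last genes inside it were GDH2, a glutamate dehydrogenase, at 506.8 FPKM, the mitochondrial phosphate carrier PHT3;1 at 505.0 FPKM and the ribosomal protein gene SAG24 at 504.8 FPKM. The first outside it were the glutathione transferase GSTU26 at 503.3 FPKM, AT2G47610 at 501.7 FPKM and AT5G57290 at 501.7 FPKM. Adjacent ranks there lie so close that a pooled value with no error cannot resolve their order.

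**Figure D1:**
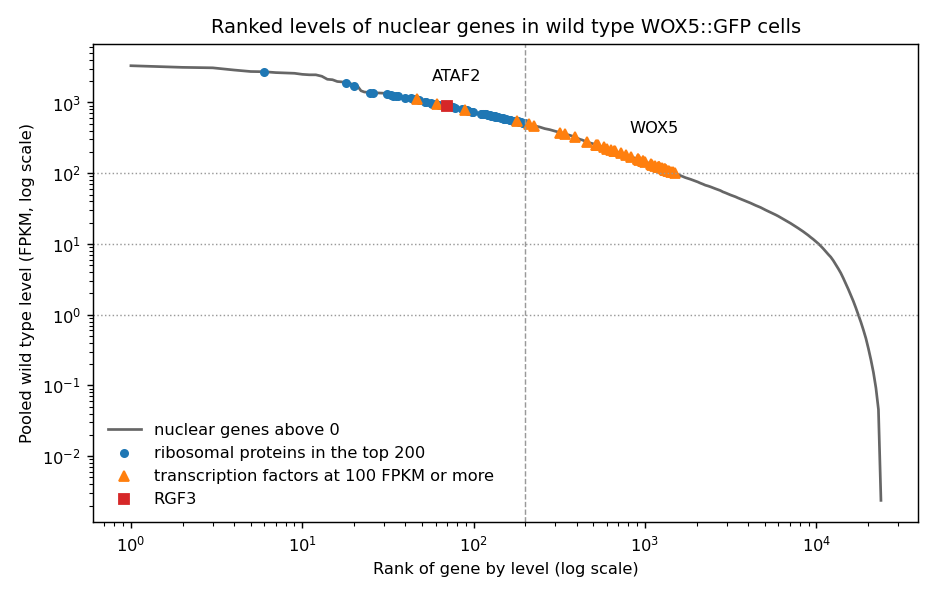
Pooled wild type level of each nuclear gene above 0 (FPKM, log axis) against its rank (log axis). The dashed line marks rank 200 and the dotted lines mark 1, 10 and 100 FPKM; blue points are ribosomal protein genes of the top 200, triangles are transcription factor genes at 100 FPKM or more and the square is RGF3. WOX5 lies at rank 665, and 4 triangles lie left of rank 200.

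Genes for ribosomal proteins made up the largest class of the 200. They supplied 67 of the 200 genes (33.5%), against 447 of all annotated nuclear genes (1.39%), and 30.2% of the FPKM summed over the 200. The share was 33 genes of the highest 100 and 118 of the highest 400. The class, set by words in the RefSeq product name or domain notes, also takes in ribosomal proteins of plastids and mitochondria. Over all 447 genes the median was 54.9 FPKM, 361 reached 10 FPKM and 21 were listed at 0. The highest were EMB2296, of the L2 family, at 2723 FPKM, AT3G06700 of the L29e family at 1908 FPKM, AT1G70600 of the L18e/L15 family at 1716 FPKM and AT4G27090, which encodes ribosomal protein L14, at 1381 FPKM. AT5G20290 (S8e family) stood at 1376 FPKM. The ubiquitin extension gene UBQ1, whose product is cut into ubiquitin and a ribosomal protein, stood at 2589 FPKM and was counted with ubiquitin.

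Upstream sequences of these genes shared short motifs that the ranking did not use. The site II element was searched as TGGGCC and, as an alternative form, TGGGCT, each on both strands. It and the telo-box (AAACCCTA, both strands) are known from plant genes of translation, and the TATA box was searched as TATAAA. In the 250 bases before the RefSeq start, 52 of the 67 ribosomal protein genes of the top 200 (77.6%) held a site II element. The share was 53.0% over all 447 ribosomal protein genes, 19.8% over the other 131 protein-coding genes of the top 200 and 19.4% over all 26167 protein-coding genes with a window. The telo-box was in 23.9% of the 67 windows, in 3.05% of the other 131 and in 4.45% of all windows. The TATA box was in 56.7% of the 67 windows and 47.9% of all. By rank, site II elements were in 39.4% of windows of the top 200, 31.1% from there to rank 1000, 24.99% from there to rank 5000 and 12.5% among genes under 1 FPKM. Matches are descriptions of letters, not of bound sites, and windows depend on the annotated start.

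A site II element and a telo-box were both in 13 of the 67 ribosomal protein windows (19.4%), and 3 of these windows are shown. They are those of the 3 highest genes of the class with both, a choice made after the values were seen. Capitals mark site II elements, telo-boxes and TATA boxes on either strand, so that on the reverse strand a site II element reads GGCCCA or, in its alternative form, AGCCCA, the telo-box reads TAGGGTTT, and the TATA box reads TTTATA. All are read 5′ to 3′ toward the gene, on the minus strand of TAIR10.1. AT4G27090 (1381 FPKM) has its window at chr4:13595253-13595502. AT2G40205, of the L41 family, stood at 1252 FPKM and has its window at chr2:16792623-16792872. AT5G15200, which encodes ribosomal protein S4, stood at 1127 FPKM and has its window at chr5:4936430-4936679.
AT4G27090: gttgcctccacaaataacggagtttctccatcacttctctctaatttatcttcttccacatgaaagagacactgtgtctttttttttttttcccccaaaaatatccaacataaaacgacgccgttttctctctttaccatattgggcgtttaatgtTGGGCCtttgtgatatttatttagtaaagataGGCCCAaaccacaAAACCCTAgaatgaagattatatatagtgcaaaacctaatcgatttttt
AT2G40205: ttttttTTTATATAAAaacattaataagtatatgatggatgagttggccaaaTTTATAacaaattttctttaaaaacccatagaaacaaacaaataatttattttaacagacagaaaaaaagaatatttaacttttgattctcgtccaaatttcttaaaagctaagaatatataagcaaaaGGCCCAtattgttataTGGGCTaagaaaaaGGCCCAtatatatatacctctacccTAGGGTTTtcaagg
AT5G15200: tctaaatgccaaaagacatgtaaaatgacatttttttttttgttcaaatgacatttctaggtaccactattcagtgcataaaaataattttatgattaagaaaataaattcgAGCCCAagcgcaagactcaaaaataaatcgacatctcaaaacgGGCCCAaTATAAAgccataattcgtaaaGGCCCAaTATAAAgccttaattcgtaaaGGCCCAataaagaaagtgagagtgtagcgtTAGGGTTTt
In each window the telo-box lies closest to the start, beginning 49 bases before it in AT4G27090, 14 bases in AT2G40205 and 9 bases in AT5G15200. The site II elements begin 94 and 62 bases before the start of AT4G27090. In AT2G40205 they begin at 69, 53 and 39 bases, and in AT5G15200 at 138, 95, 67 and 39 bases. The TATA boxes capitalised at 244 and 240 bases before AT2G40205 overlap each other.

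**Figure D2:**
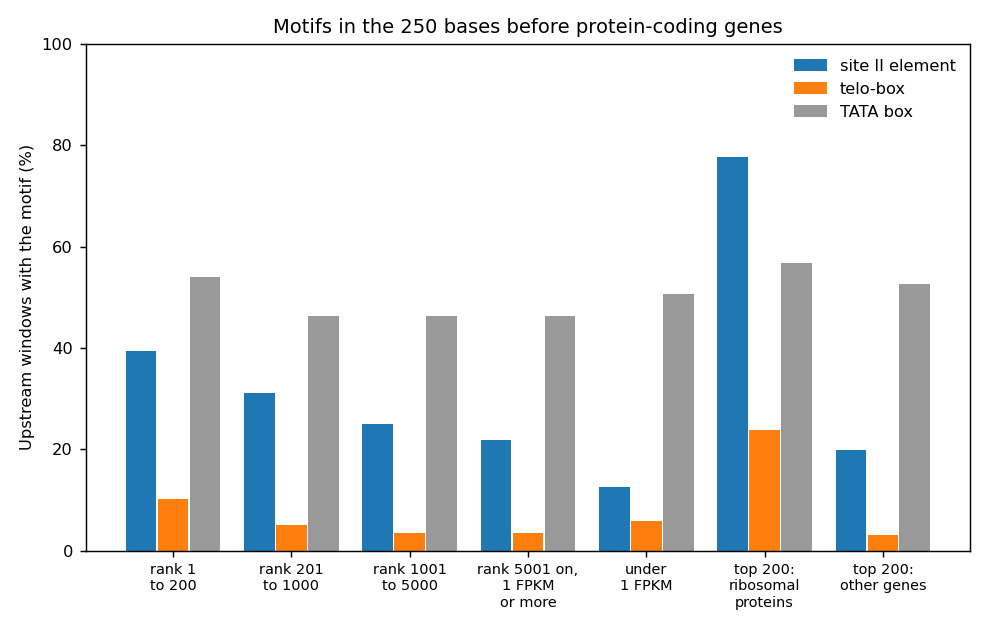
Percentage of 250-base upstream windows of protein-coding genes that hold a site II element, a telo-box or a TATA box, by abundance class and for the ribosomal protein and other genes of the top 200. Bars start at 0; the site II bar is 77.6% for ribosomal protein genes of the top 200 and 19.8% for the other genes of the top 200.

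Beta-glucosidases and jacalin-type lectins, several of them proteins of ER bodies, were the next largest named class. ER bodies are compartments of Brassicaceae roots and seedlings that store beta-glucosidases, enzymes that release toxic products from glucosides when cells are damaged. The class supplied 11 of the 200 genes (5.5%), of 95 such genes in all (0.295% of annotated nuclear genes). The lectin gene AT1G52070 stood at 3139 FPKM, rank 2. PBP1, a lectin that binds the beta-glucosidase PYK10, stood at 2462 FPKM, and PYK10 itself at 1708 FPKM. BGLU21 stood at 2130 FPKM and its neighbor BGLU22 at 795 FPKM, but their transcripts are near-identical and fragments may have been split between them. BGLU34 stood at 1361 FPKM and its near-identical copy BGLU35 at 722 FPKM. NAI2, needed for ER body formation, stood at 666 FPKM. The class median was 0.333 FPKM, so the high levels belonged to few of its genes.

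Several adjacent genes were in the top 200 together. In the order of protein-coding genes alone, 8 pairs lay next to each other or with 1 gene between them. How many such pairs other sets of 200 genes hold was not counted. Among the pairs are AT2G01008 and AT2G01021, which lie in the ribosomal DNA repeats described below, where the placement of fragments is uncertain. AT1G52050, AT1G52060 and AT1G52070, a run of jacalin-type lectins, stood at 706, 1124 and 3139 FPKM. The glutathione transferases GSTF9 and GSTF10 stood at 1956 and 837 FPKM. The dehydrins COR47 and ERD10 stood at 749 and 921 FPKM. Lipid transfer protein genes AT5G46890 and AT5G46900, at 1179 and 734 FPKM, are near-identical copies too. Chromosome 3 held 52 of the 200 genes, and 20.2% of all nuclear genes.

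Arabinogalactan proteins, cell-surface glycoproteins, supplied 7 of the 200 genes (3.5%), of 57 in all (0.177% of annotated nuclear genes). Their highest members were AGP2 at 2615 FPKM, AGP1 at 1465 FPKM, AGP30 at 1358 FPKM and AGP31 at 1215 FPKM. The methionine cycle regenerates S-adenosylmethionine, the methyl donor of the cell. The class pattern for its enzymes, set after the ranking was seen, took in 7 genes and need not hold the whole cycle. All 7 reached 100 FPKM and 4 were in the top 200. These were HOG1, the S-adenosylhomocysteine hydrolase, at 2463 FPKM and the methionine synthase ATMS1 at 1408 FPKM. The others were the S-adenosylmethionine synthetases MAT3 at 821 FPKM and SAM-2 at 709 FPKM. Glutathione transferases, which conjugate glutathione to reactive compounds, supplied 4 genes of the 200 (2.0%), of 55 in all (0.171% of annotated nuclear genes). GSTU19 led them at 2742 FPKM, with GSTF9 at 1956 FPKM. GSTU25 stood at 934 FPKM.

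Other high genes covered stress proteins, energy metabolism and the cytoskeleton. The late embryogenesis abundant (LEA) protein genes AT5G60530 and AT5G54370 stood at 3092 and 2099 FPKM, and HSC70-1, a constitutive chaperone, at 1321 FPKM. AAC1, the mitochondrial ADP/ATP carrier, stood at 1872 FPKM. It led 10 genes of respiration, ATP synthase and mitochondrial transport (5.0% of the 200), a class of 120 genes (0.372% of annotated nuclear genes). Glycolysis and carbon metabolism, a class of 70 genes (0.217%), supplied 7 genes (3.5% of the 200). Its highest were the dehydrogenase GAPC1 at 1198 FPKM and the aldolase FBA8 at 942 FPKM. The class pattern also took in RGP1, named a reversibly glycosylated polypeptide, at 1005 FPKM. The cytoskeleton genes TUA4, an alpha-tubulin, ADF3, an actin-depolymerising factor, PFN2, a profilin, and ACT2, an actin, stood at 1002, 863, 796 and 705 FPKM. Annexins ANNAT1 and ANNAT2, calcium-binding membrane proteins, stood at 1394 and 1367 FPKM. Aquaporins were represented by PIP1B, PIP1A and PIP3 at 562, 561 and 528 FPKM. The histone genes AT5G10980 and AT4G40040 stood at 569 and 513 FPKM. In the remaining 38 genes outside any class, AT2G43610, of the chitinase family, stood at 2647 FPKM, AT1G50060, of the cysteine-rich secretory family, at 2501 FPKM, and AT2G16586, an uncharacterized protein, at 2351 FPKM. The TRAF-like gene AT5G26260 stood at 1981 FPKM, and FAD2, a fatty acid desaturase, at 1352 FPKM. AT5G60390, a translation elongation factor gene, stood at 2879 FPKM. Redox proteins were led by MSRB9, a methionine sulfoxide reductase, at 1149.8 FPKM and APX1, an ascorbate peroxidase, at 830.2 FPKM. Ubiquitin and proteolysis genes after UBQ1 were UBQ5 at 1078 FPKM and the cysteine proteinase CEP2 at 1077 FPKM.

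**Figure D3:**
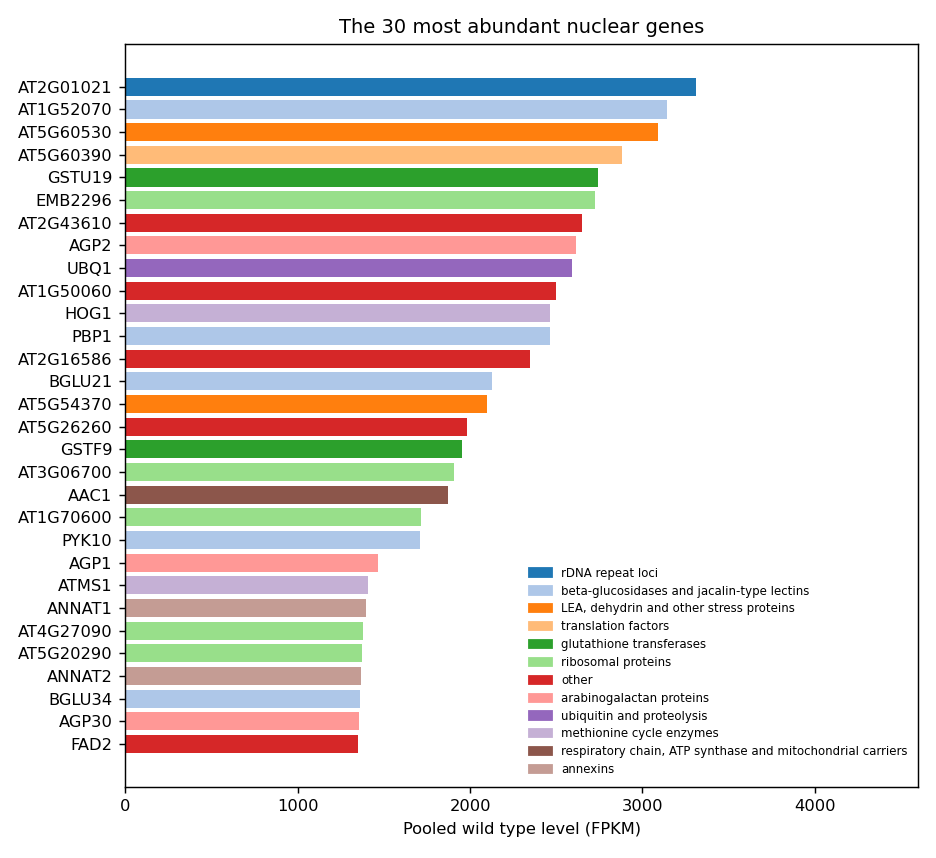
Pooled wild type level (FPKM) of the 30 most abundant nuclear genes, colored by class; bars start at 0 and carry no error, since each is 1 pooled value. AT2G01021 is highest at 3312 FPKM and FAD2, at rank 30, stands at 1352 FPKM.

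The top-ranked gene and 3 others lie in ribosomal DNA repeats. AT2G01021, a predicted protein of a 102-base locus (TAIR10.1, chr2:6571-6672), stood at 3312 FPKM, and the values of so short a transcript depend strongly on the length correction. AT3G41768, an 18S ribosomal RNA gene, stood at 819 FPKM, AT3G41762 at 800.1 FPKM and AT2G01008 at 595 FPKM. The other 18S gene, AT2G01010, whose transcript matches over its whole length at 90% or more identity, stood at 0.460 FPKM, so the placement of fragments among these copies is uncertain. Near-identical copies (90% or more identity over 50% or more of the transcript) were found for 18 of the 200 genes, 5 of them ribosomal protein genes. AT5G60390 has such copies in AT1G07920, AT1G07930 and AT1G07940, at 160.4, 124 and 95.5 FPKM, and TUA4 in TUA2 and TUA6, at 426 and 463 FPKM. The status cell of 5 of the 200 genes (AT5G60390, HOG1, AAC1, ATMS1 and ACT2) marks more fragments than the authors' software tested.

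Genes of the top 200 had shorter transcripts at the median than all protein-coding genes. FPKM, which ranked them, itself divides by transcript length, so this difference is not independent of the ranking. The median transcript length was 1118.5 bases for its protein-coding genes and 1541 bases for all protein-coding genes, and the median coding length was 618 and 1065 bases. Within the top 200 the median transcript was 999 bases for the 67 ribosomal protein genes and 1279 bases for the other 131. Genes under 1 FPKM had a median transcript of 1209 bases. Single-exon genes were 11.1% of the protein-coding genes of the top 200 and 20.7% of all protein-coding genes.

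Transcription factors were few among the most abundant genes. Of 1633 genes with a DNA-binding or regulator domain, 910 (55.7%) reached 1 FPKM, 513 (31.4%) reached 10 FPKM and 47 (2.88%) reached 100 FPKM. Over all nuclear genes the shares were 53.7%, 31.6% and 4.55%. There were 4 in the top 200. NAC102, ATAF2 and ATAF1 are NAC genes related to stress responses, at 1119 FPKM for ATAF2, 789 FPKM for NAC102 and 548 FPKM for ATAF1. The other is AT1G22190, an AP2/ERF gene that RefSeq also names RAP2.4, at 937 FPKM. Each of these NAC genes shares a table locus with a neighbor, at 14.5 FPKM for the neighbor of ATAF2, 26.96 FPKM for that of NAC102 and 28.2 FPKM for that of ATAF1.

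Below rank 200, regulators of stress, jasmonate and auxin responses came first. DREB2A, a drought and heat response factor, stood at 490 FPKM. The jasmonate repressors JAZ1, TIFY10B and JAZ12 stood at 472, 363 and 232 FPKM. BS1, which RefSeq also names TMO7 (TARGET OF MONOPTEROS 7), stood at 375 FPKM. The zinc finger gene RHL41 (ZAT12) stood at 275 FPKM. Further AP2/ERF genes were RAP2.4 (AT1G78080) at 253 FPKM, ERF-1 at 248 FPKM, AT1G36060 at 223 FPKM, RAP2.2 at 159 FPKM, ERF6 at 134 FPKM and RRTF1 at 133 FPKM. GATA2 stood at 146 FPKM and WRKY33 at 128 FPKM. HD2C, a histone deacetylase that carries a C2H2 domain and is not a classical transcription factor, stood at 159 FPKM.

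Auxin response genes were also among the abundant regulators. Aux/IAA proteins, which repress auxin response genes until auxin triggers their breakdown, had 8 of 29 genes at 100 FPKM or more and a family median of 19.8 FPKM. AXR3 (IAA17) stood at 326 FPKM, IAA7 at 252 FPKM, IAA9 at 213 FPKM, IAA1 at 205 FPKM, IAA33 at 190.3 FPKM, IAA2 at 156 FPKM and IAA20 at 148 FPKM. MP, the auxin response factor MONOPTEROS that patterns the embryonic root, stood at 181 FPKM. It was the only one of 22 ARF genes at 100 FPKM or more, a share near the 4.55% of all nuclear genes.

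**Figure D4:**
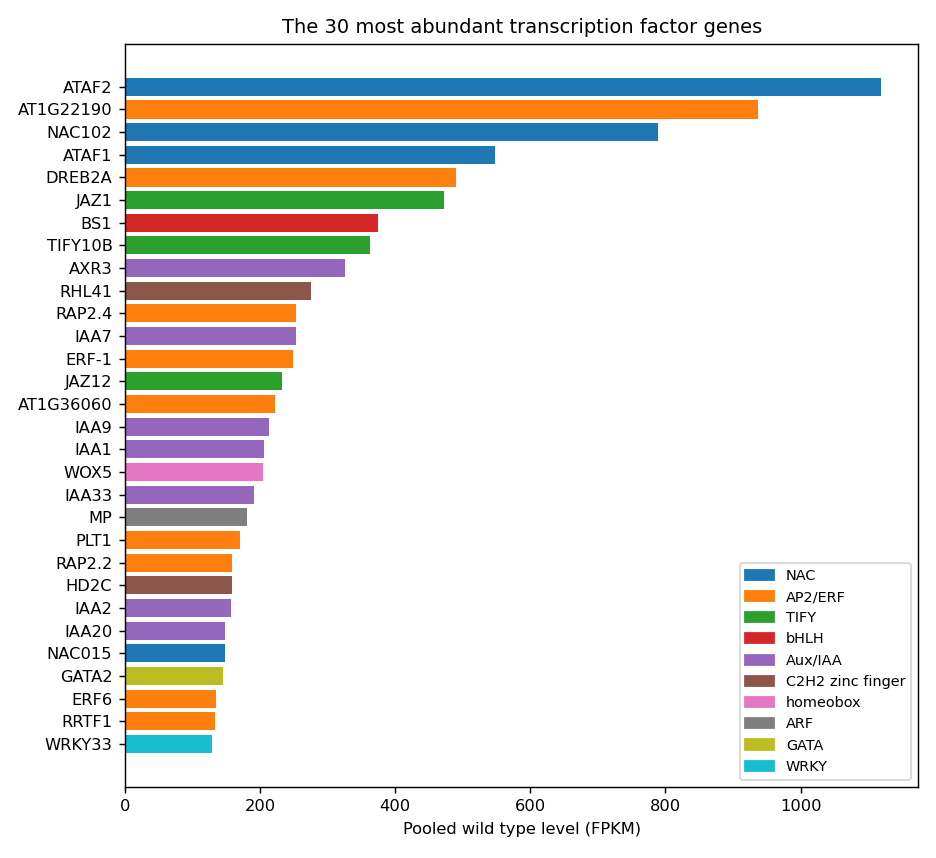
Pooled wild type level (FPKM) of the 30 most abundant transcription factor genes, colored by family; bars start at 0 and carry no error, since each is 1 pooled value. ATAF2 is highest at 1119 FPKM, WOX5 stands at 205 FPKM and WRKY33, the last shown, at 128 FPKM.

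Families differed in how many members were abundant. AP2/ERF genes had 11 of 145 at 100 FPKM or more with a median of 4.24 FPKM. NAC genes had 5 of 111 with a median of 0.410 FPKM, and WRKY genes 4 of 70 with a median of 4.01 FPKM. Over all nuclear genes 4.55% reached 100 FPKM, a share that the NAC count lies near, and the median was 1.60 FPKM. TIFY genes had 3 of 14 at 100 FPKM or more and a median of 20.2 FPKM. The highest MYB-type gene was AT1G74840 at 114 FPKM, the highest bZIP BZIP25 at 116 FPKM, the highest GRAS gene SCL13 at 103 FPKM and the highest of the BES1/BZR1 family BES1, a brassinosteroid response factor, at 107 FPKM. EIN3, the central factor of ethylene response, stood at 122 FPKM. In other families the highest member was lower. ASL5 (LBD family) stood at 67.1 FPKM, HSFB4 (heat shock factors) at 62.1 FPKM, AT1G21340 (Dof) at 60.5 FPKM, MAF1 (MADS-box) at 59.0 FPKM and SPL14 (SBP) at 58.9 FPKM. NF-YB11 (NF-Y) stood at 54.9 FPKM, AT1G49475 (B3) at 46.6 FPKM, SR1 (CAMTA) at 23.1 FPKM and DEL1 (E2F/DP) at 17.0 FPKM. No MADS-box, B3, LBD, TCP or ZF-HD gene reached 100 FPKM. A count of none is near the share over all nuclear genes for families as small as TCP (24 genes) and ZF-HD (14 genes). Family medians were 0.158 FPKM for 108 MADS-box genes, 0.0312 FPKM for 75 B3 genes and 0.361 FPKM for 42 LBD genes.

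Genes listed as niche regulators spanned a wide range. Of 31 such genes, 28 reached 1 FPKM, 23 reached 10 FPKM and 5 reached 100 FPKM, with a median of 24.3 FPKM. The list and its count at 100 FPKM include WOX5, whose promoter defined the sort. The gene at the median was STM, a KNOX homeobox gene. Over all nuclear genes the shares were 53.7%, 31.6% and 4.55% and the median was 1.60 FPKM. The RGF peptide gene RGF3 was highest at 891 FPKM, rank 70, and RGF2 stood at 259.6 FPKM. PLT1 stood at 169.7 FPKM, PLT3, listed in RefSeq as AIL6, at 123 FPKM and PLT2 at 81.7 FPKM. SCR, the SCARECROW gene, stood at 29.9 FPKM and JKD, its zinc finger partner, at 19.8 FPKM. SHR, whose protein moves in from the stele, stood at 2.33 FPKM. The lowest was ERF115, a factor of quiescent center division, at 0.0706 FPKM. PAN stood at 20.0 FPKM at a table locus shared with a neighbor.

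Signalling peptides were mostly low, with a few abundant members. Of 95 such genes, 46 (48.4%) reached 1 FPKM and 22 (23.2%) reached 10 FPKM, below the 53.7% and 31.6% of all nuclear genes, and the median was 0.843 FPKM against 1.60 FPKM. At 100 FPKM there were 7 (7.37%), against 4.55% of all nuclear genes. Besides RGF3, GASA4 stood at 658 FPKM and RGF8 at 508 FPKM in the top 200, and GASA1 at 322 FPKM outside it. RALFL22 and PSK1, a precursor of phytosulfokine, stood at 134 and 107 FPKM. RGF4 and RGF1 stood at 84.0 and 73.5 FPKM. CLE40, a peptide that acts on the columella stem cells, stood at 9.27 FPKM. Receptor kinases had a smaller share at 100 FPKM, with 2 of 370 (0.541%), AT3G08680 at 127 FPKM and AT3G56370 at 107 FPKM. Of the 370, 190 (51.4%) reached 1 FPKM and 73 (19.7%) reached 10 FPKM. Their median of 1.11 FPKM was above the 0.843 FPKM of the peptides. FER, the receptor of RALF peptides, stood at 57.9 FPKM and the brassinosteroid receptor BRI1 at 42.1 FPKM.

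Among genes of auxin synthesis, transport and response, all 32 listed genes reached 1 FPKM, 29 reached 10 FPKM and 9 reached 100 FPKM. Their median was 59.6 FPKM. Over all nuclear genes the shares at these levels were 53.7%, 31.6% and 4.55% and the median was 1.60 FPKM. CYP79B2, which makes indole-3-acetaldoxime from tryptophan, stood at 579 FPKM and its relative CYP79B3 at 234 FPKM. YUC3, an enzyme of auxin synthesis, stood at 379 FPKM, and the auxin exporter PIN4 at 201.4 FPKM. Cell cycle genes had no member at 100 FPKM, which in a list of 27 is near the share over all nuclear genes. Of 27, 25 reached 1 FPKM, 19 reached 10 FPKM and the median was 21.0 FPKM. The highest were ETG1, a replication factor, at 43.0 FPKM and CDKA;1, the main cell cycle kinase, at 37.2 FPKM, and the kinase inhibitor KRP1 was lowest at 0.369 FPKM. The 5 corepressor genes of the TOPLESS family lay between 13.9 and 26.1 FPKM. Of 12 cytokinin and brassinosteroid genes with a row of their own, 7 reached 10 FPKM, among them the response regulators ARR10 at 58.2 FPKM and ARR1 at 38.1 FPKM, while the cytokinin response genes ARR7 and ARR15 stood at 0.122 and 0.179 FPKM.

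Markers of other root tissues were also present. For comparison, 31.6% of all nuclear genes reached 10 FPKM and their median was 1.60 FPKM. The lists overlap, since the root cap genes PIN3, PIN7, ARF10 and ARF16 are also in the auxin list. Likewise, the stele genes WOL and AHP6 are also in the cytokinin and brassinosteroid list. All 13 root cap genes reached 10 FPKM, with a median of 45.9 FPKM and a sum of 1034 FPKM. Among them were CEL5, a cellulase of the cap, at 237 FPKM, DRO1, a gene of root angle, at 199 FPKM and the NAC factors BRN1 (NAC015) at 148 FPKM and BRN2 (NAC070) at 122 FPKM. Of 20 epidermis and root hair genes 14 reached 10 FPKM, with a sum of 786 FPKM and with the root hair expansin EXPA18 at 204 FPKM, the wall protein PRP3 at 168 FPKM, COBL9 at 76.3 FPKM and EXPA7 at 63.0 FPKM. Endodermis and cortex genes had 7 of 12 at 10 FPKM or more, a sum of 227 FPKM and their highest members in EN7 at 57.0 FPKM and the Casparian strip gene CASP1 at 48.4 FPKM, followed by CASP2 at 28.97 FPKM and the peroxidase PER64 at 26.4 FPKM. Of 17 stele genes with a row, 2 reached 10 FPKM, ATHB8 at 29.8 FPKM and the cytokinin receptor WOL at 28.1 FPKM, with a median of 1.54 FPKM and a sum of 98.3 FPKM. The stele median was 2.57 FPKM over genes with an OK status and 2.83 FPKM over members at 1 FPKM or more. No green tissue gene of 12 reached 10 FPKM, their highest was LHCB3 at 3.12 FPKM, their sum was 8.94 FPKM, and LHCB2.1, RBCS1B, RBCS2B and RBCS3B were listed at 0. The green tissue median of 0.517 FPKM became 1.16 FPKM over genes with an OK status, 1.25 FPKM over members at 1 FPKM or more and 0.315 FPKM without genes that share a locus. The part of cells of other types in the levels above was not tested.

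Genes of wound and heat response spanned a wide range. Of 22, 20 reached 1 FPKM, 16 reached 10 FPKM and 6 reached 100 FPKM, with a median of 33.8 FPKM and a sum of 1699 FPKM. The shares over all nuclear genes were 53.7%, 31.6% and 4.55%, and the median was 1.60 FPKM. JAZ1, RHL41, ERF6 and WRKY33, given above, were the highest, and VSP2, a late jasmonate response gene, was lowest at 0.0647 FPKM. Of the heat genes, HSP70 stood at 107 FPKM, but HSP101, HSFA2 and HSP90.1 at 16.7, 11.8 and 11.7 FPKM. ERF104, JAZ8, ERF5, JAZ7 and LOX2 were lower, at 7.81, 7.76, 5.73, 2.93 and 0.888 FPKM. Roots were protoplasted before the sort, and no unsorted or unprotoplasted sample was analysed here, so the part of protoplasting in these levels was not tested. The 8 reference genes ran from 36.9 FPKM to GAPC1 at 1198 FPKM, with UBQ10 at 421 FPKM and ACT7 at 416 FPKM. Their median of 241 FPKM depended on which were kept, and was 66.6 FPKM with an OK status alone and 416 FPKM without genes that share a locus.

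**Figure D5:**
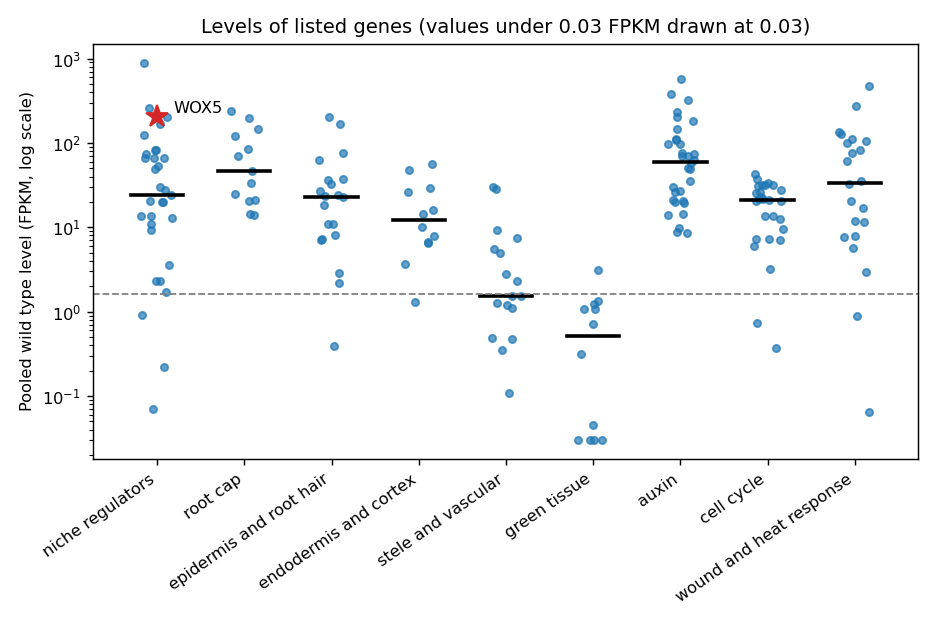
Pooled wild type level (FPKM, log axis) of each listed gene, by list; black bars are list medians, the dashed line is the median of all nuclear genes at 1.60 FPKM and the star is WOX5. Values under 0.03 FPKM, the 4 green tissue genes listed at 0, are drawn at 0.03. Root cap genes have a median of 45.9 FPKM and green tissue genes one of 0.517 FPKM, over all members.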

How the data were processed

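RNA sequencing was deposited by the authors as FPKM, in a table with the layout of a Cuffdiff gene comparison that holds 1 value pooled over the 4 libraries of a genotype. The tools named, per the submitters' processing notes, are Cuffdiff, Cufflinks 2.1.1 and TopHat2 2.0.13, and the build is TAIR10. How they were set, and whether counting used strand, is not given in the sources used here, so values of overlapping genes are uncertain. Amplification from low input adds variation to weakly expressed genes.

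Single-gene nuclear rows were ranked by the wild type value as deposited. RefSeq names (TAIR10.1) matched 32218 of the 32654 (98.7%). Words in the RefSeq product name or its InterPro domain notes set most classes. Gene symbols set the signalling peptides, and position near ribosomal RNA genes set the ribosomal DNA loci. InterPro domains set the transcription factor families. The plan had named product words for both classes and families. Copies were sought with BLAST+ 2.17.0, and motifs in 250-base windows. Named were the 30 highest genes, the 3 genes on each side of the cutoff, the 30 highest transcription factors, up to 4 genes per class and list, those listed at 0, and the highest gene of each family with at least 3 genes at 10 FPKM. Peptides, receptors, heat genes, low members and copies were named after their values were seen.

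The members and lists were chosen with earlier results of these data known. Class patterns, peptide and receptor patterns, the identity limit for copies and the promoters shown were set after the ranking was seen. Ranking and counting were tested on simulated data. No test between samples was possible. LHW and BIN2 have no row of their own.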

Additional observations from a re-analysis of the deposited data

Results flagged for a closer look

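The mitochondrial gene row ATMG00020 stood at 7703 FPKM (7703.16 in the table), above every nuclear gene ranked here. It was flagged as a signal outside the ranked data, since organelle rows were left out. Of 265 organelle rows, 26 reached 100 FPKM and 4 lay at or above the level of rank 200.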

How the results depend on the processing

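Alternatives were keeping rows that name several genes, keeping organelle rows, rows with an OK status alone, protein-coding genes alone, leaving out transcripts under 300 bases or genes that share a locus, rescaling FPKM to 1 fixed sum, taking 100 or 400 genes, and, for list medians, members at 1 FPKM or more alone. Counts of nuclear genes at each level and of transcription factor genes at 100 FPKM stayed within 1.5 times their value under each of these that was run on them. The share of ribosomal protein genes was 33.0% of 100 genes and 29.5% of 400. Transcription factor genes in the top 200 fell from 4 to 2 without genes that share a locus. The NAC genes leave by construction, and DREB2A, at rank 210 in the main ranking, moves into the refilled 200. Rescaling multiplied every level by 1.299 and gave 18236, 11399 and 1980 genes at the 3 levels. Under the settings that keep 200 genes, ribosomal protein genes among them ranged from 66 to 72. WOX5 ranked between 599 and 680. The mean of log2(FPKM + pseudocount) over green tissue genes was 0.65 with a pseudocount of 1 and -1.21 with 0.1, since 4 members are listed at 0. List medians that moved by over 1.5 times were those of reference, stele, green tissue and cytokinin and brassinosteroid genes; the last went from 26.7 to 16.2 FPKM without genes that share a locus. Corepressor genes at 10 FPKM fell from 5 to 2 in that setting. No paired analysis was possible because the deposited values are pooled over libraries, and for the same reason leaving out each library in turn was not run. Without values per library, neither depth nor replicate error limits can be given. A level near 0 is not shown to be absence of the transcript.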
